A study of Arabidopsis thaliana with 2 samples.

Results

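The 10 genes described here encode partners of RNA polymerases IV and V in Arabidopsis thaliana: DRD1 (AT2G16390), DMS3 (AT3G49250) and RDM1 (AT3G22680), CLSY1 (AT3G42670), CLSY2 (AT5G20420), CLSY3 (AT1G05490) and CLSY4 (AT3G24340), SHH1 (AT1G15215), IDN2 (AT3G48670) and KTF1 (AT5G04290). They were taken by locus identifier from a gene table that holds 27444 nuclear protein-coding genes, and 10 of 10 were found. The study mapped nucleosomes by MNase-seq, in which micrococcal nuclease removes the DNA between nucleosomes and the protected fragments are sequenced. It has 2 libraries of genomic DNA from seedlings grown for 2 to 3 weeks in long days, 1 of the strain nrpe1 and 1 of the strain Col-0, with no replicate of either. The strain nrpe1 is a mutant of NRPE1, the gene for the catalytic subunit of RNA polymerase V, and Col-0 is the usual laboratory wild type. The sources used here do not give the nrpe1 allele or how many plants went into each library.

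The deposited data are 1 list for both strains, with 397452 nucleosomes, for which positions and a score of the authors' own are given. The scores run from 0.500003 to 0.991, and the intervals are 120 to 180 bp long. The sources used here do not say whether calls outside these limits were left out. A stretch or side of a gene without a listed nucleosome is therefore not shown to be free of nucleosomes. A nucleosome in this list carries no strain, so nrpe1 was not compared with Col-0. Library depths are unknown, and every value below describes the 2 libraries together. Those scoring at or above the median of the whole list, 0.790, are called higher-scoring nucleosomes below. Of the listed nucleosomes, 212 are centred in the 10 genes and 59 within 1 kb outside them, 271 in all. The gene table gives no strand, so the sides of a gene are called its lower and higher side, by chromosome coordinate, and positions within a gene are counted from its lower end. Positions on chromosomes are those of the list, on the TAIR10 genome.

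RNA polymerases IV and V are plant relatives of RNA polymerase II that act in RNA-directed DNA methylation, which silences transposons and repeats. Polymerase IV makes the precursors of small interfering RNAs, and the CLSY proteins, which belong to the SNF2 family of chromatin remodellers, and SHH1, a reader of histone H3 methylation, bring it to its loci. Polymerase V makes longer non-coding transcripts on which Argonaute proteins with small RNAs assemble, and its transcription needs the DDR complex of DRD1, DMS3 and RDM1. IDN2 binds RNA and contacts the SWI/SNF subunit SWI3B, and KTF1 binds both Argonaute 4 and RNA. The title of the series concerns SWI/SNF remodelling in this silencing.

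CLSY4, CLSY3 and CLSY1 carried the most listed nucleosomes for their length among these partners, followed by DRD1, and DMS3 the fewest, although all 10 counting intervals overlap. Gene body density, which counts listed centres per kb of gene, was 6.42 in CLSY4, 5.82 in CLSY3, 5.38 in CLSY1, 5.16 in DRD1 and 4.77 in CLSY2. It was 4.48 in SHH1, 4.45 in KTF1, 4.17 in RDM1, 4.12 in IDN2 and 3.77 in DMS3. The median of the 10 genes was 4.63 per kb, against 4.03 per kb over all protein-coding genes, whose quartiles were 3.05 and 5.07. Densities above the median of all genes were found in 9 of the 10, with DMS3 as the exception. Above it lie 13722 of all 27444 genes by construction, and 6542 of the 13846 genes in the length range of the 10. RDM1 and IDN2 stood close to it, at 1.04 and 1.02 times the median gene. Both ends of this order depend on overlapping calls. With overlapping intervals thinned to the higher-scoring one, CLSY3 was highest at 1.56 times the median gene, ahead of CLSY4 at 1.36 times. DRD1, at 1.21 times, then stood just behind SHH1 and KTF1. RDM1 was lowest at 0.980 times and CLSY2 next at 1.03 times, while DMS3 stood at 1.12 times.

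Summed over the 43.5 kb of the 10 genes, 212 centres gave 4.87 per kb, with a 95% exact Poisson interval from 4.24 to 5.57. Such intervals cover counting error only. In all protein-coding genes together the density was 4.03 per kb. Above the upper quartile of protein-coding genes lay 4 of the 10, namely CLSY4, CLSY3, CLSY1 and DRD1, where 25.0% of all genes lie by construction. Among genes between 2008 and 6968 bp long, the length range of these 10, that share was 19.6%. Below the lower quartile lay 0 of the 10, where again 25.0% of all genes lie. With 10 genes and 1 pooled list these counts were not tested. Counting 1 kb on both sides with each gene, 7 of the 10 lay above the upper quartile of genes measured in the same way. The 10 genes are longer than most, with a median of 4452 bp against 2078 bp, and when they were set against genes of similar length in that wider window the count was 6.

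**Figure D1:**
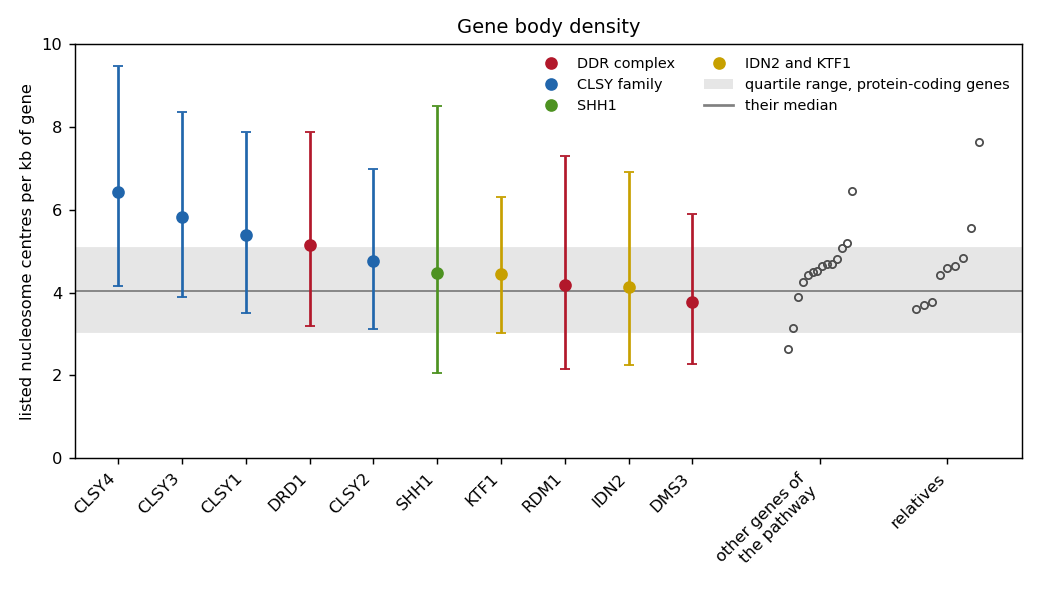
Listed nucleosome centres per kb of gene body for the 10 genes in order of density, with 95% exact Poisson intervals (counting error only), beside 14 other genes of the pathway and 9 relatives as open circles; the band is the quartile range of all 27444 protein-coding genes. CLSY4 at 6.42 per kb stands highest of the 10 and DMS3 at 3.77 per kb lowest, and each of the 10 intervals overlaps the other 9.

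In this order no pair of neighbours differed beyond counting error, and the interval of every gene overlapped those of all 9 others. The interval of CLSY4 ran from 4.15 to 9.47 per kb and that of DMS3 from 2.27 to 5.89 per kb. By group, the 4 CLSY genes held 106 centres in 19.2 kb, 5.53 per kb (interval 4.53 to 6.69). The 6 other partners held 106 centres in 24.4 kb, 4.35 per kb (interval 3.56 to 5.26). These intervals overlap too.

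DRD1, the SNF2-family remodeller of the DDR complex, held 21 nucleosome centres in 4072 bp and stood at the 76.7 percentile of protein-coding genes. Listed intervals covered 61.4% of it, and 71.4% of its nucleosomes overlapped a listed neighbour. Its highest score, 0.941, belonged to the nucleosome at 7100007 to 7100154 on chromosome 2, well inside the gene. A stretch of 461 bp without any listed interval began 1168 bp from its lower end, with 6 of its centres before and 15 after. Counting higher-scoring nucleosomes alone, DRD1 kept 9 and stood at the 60.1 percentile, below the upper quartile.

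DMS3, a protein related to the hinge of SMC proteins, held 19 centres in 5039 bp, at the 42.9 percentile. Its calls were the least crowded of the 10 genes: 42.1% overlapped a neighbour, 47.7% of the gene was covered, and the median step between successive centres was 209.5 bp. The best-scoring nucleosome of DMS3, with 0.950, was also the one nearest its lower end, at 18256016 to 18256141 on chromosome 3. In the table the model of DMS3 shares 2243 bp, 44.5% of its length, with the protein-coding gene emb1796 (AT3G49240). Nucleosomes there belong to both models, among them the best-scoring one. In the shared bases lay 9 centres, 4.01 per kb, and in the bases of DMS3 alone 10, 3.58 per kb (interval 1.72 to 6.58).

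RDM1, a small protein that binds methylated DNA, held 12 centres in 2876 bp, 4.17 per kb, at the 53.8 percentile. Each of 3 equal parts of the gene held 4 of them. No interval was listed over the first 430 bp at its lower end, most of which also belongs to the overlapping gene AT3G22670. The top score was 0.923, at 8019736 to 8019861 on chromosome 3. Most of this model, 66.0%, is shared with AT3G22670, and the 977 bp that belong to RDM1 alone held 4 centres, 4.09 per kb (interval 1.12 to 10.5). That interval extends far to both sides of the typical gene, so a moderate difference in either direction could not be seen.

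**Figure D2:**
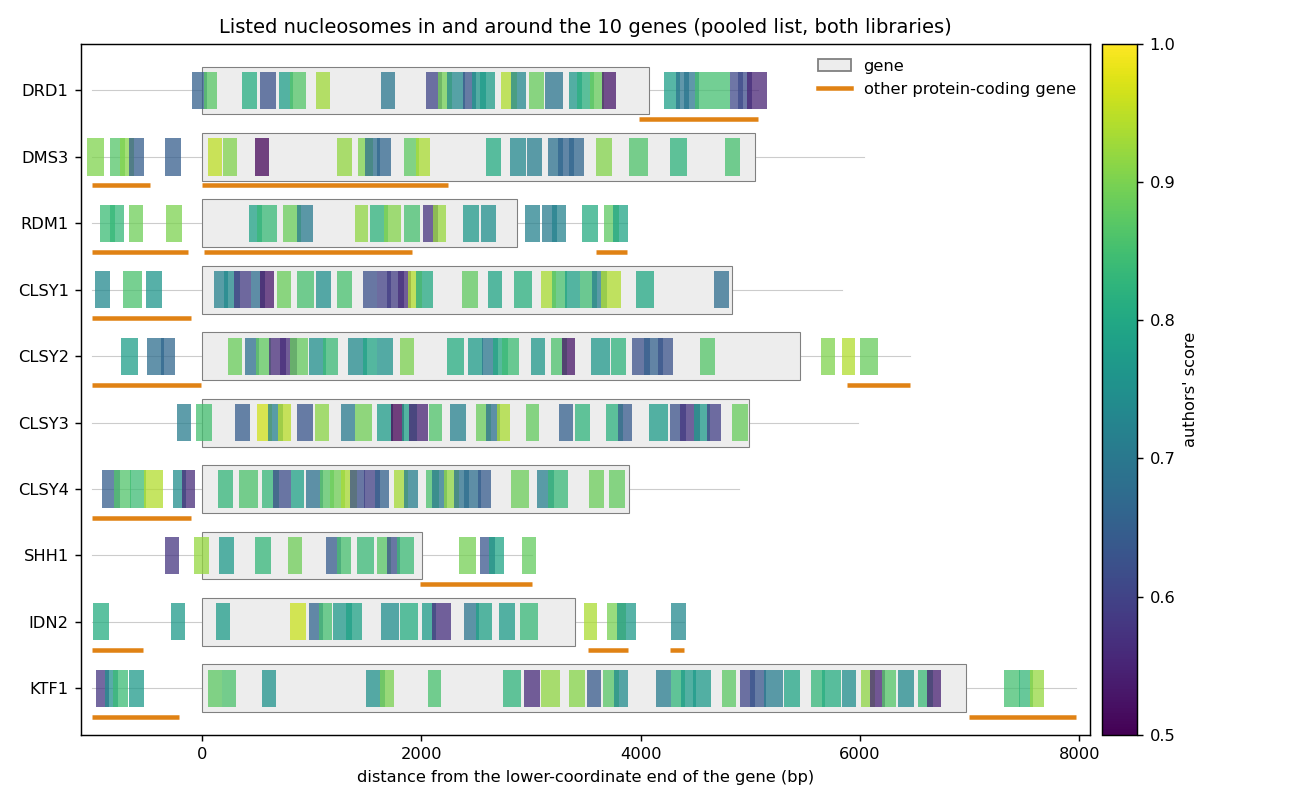
Map of the listed nucleosomes in the 10 genes and 1 kb on both sides, by distance in bp from the lower-coordinate end of each gene (grey boxes); each coloured block is a listed interval, its colour the authors' score, and orange bars are other protein-coding genes. Blocks run through CLSY3 and CLSY4 with no gap over 212 bp, KTF1 is sparse towards its lower end, and the higher side of DMS3, CLSY1, CLSY3 and CLSY4 holds 0 centres.

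CLSY3 and CLSY4 carried listed nucleosomes from end to end. CLSY4 held 25 centres in 3895 bp, which placed it at the 92.3 percentile of protein-coding genes and at the 97.7 percentile of the 4386 genes of 0.8 to 1.2 times its length. Listed intervals covered 76.8% of it. CLSY3 held 29 centres in 4986 bp, at the 86.6 percentile of all genes and at the 95.1 percentile of 2388 genes of similar length, with 71.3% covered. Both proteins direct polymerase IV to loci that depend little on SHH1, and CLSY3 is known for its role in reproductive tissue.

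In CLSY4 the calls were crowded, with 76.0% of nucleosomes overlapping a neighbour and a median step of 113.5 bp. They were densest in its middle, where 12 centres lay in the second of 3 equal parts, beside 8 in the lower and 5 in the higher part. The intervals of these 3 counts overlap. The highest score of CLSY4 was 0.934, at 8833205 to 8833347 on chromosome 3. In CLSY3, 55.2% of nucleosomes overlapped a neighbour, below the median of 62.5% over the genes with a listed centre, and the median step was 155.5 bp. CLSY3 also had the best-scoring nucleosome of the 10 genes, with 0.966, at 1619004 to 1619141 on chromosome 1.

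With higher-scoring nucleosomes alone, CLSY4 kept 13 centres and stood at the 89.7 percentile, whereas CLSY3 kept 12 and stood at the 67.3 percentile. CLSY1 kept 13 and stood at the 76.5 percentile. In that set 3 of the 10 genes lay above the upper quartile, namely CLSY1, CLSY4 and SHH1.

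CLSY1 and CLSY2, which act together with SHH1, had 26 centres each. CLSY1 is 4832 bp long and stood at the 80.6 percentile, with 66.5% covered. CLSY2 is 5453 bp long and stood at the 68.7 percentile, with 60.1% covered. In both the count declined towards the higher end: 10, 9 and 7 centres in the 3 parts of CLSY1, and 11, 9 and 6 in those of CLSY2. The intervals of these counts overlap within each gene. CLSY2 ended in a stretch of 775 bp without a listed interval, which reached its higher end. The top-scoring nucleosomes were at 14757674 to 14757803 on chromosome 3 in CLSY1, with 0.942, and at 6900596 to 6900723 on chromosome 5 in CLSY2, with 0.901.

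CLSY1 lies in a part of chromosome 3 with few genes and many listed nucleosomes. Within 50 kb on either side of CLSY1 there were 5.23 centres per kb, about its own density, and only 4 other protein-coding genes, 2 of them with a lower density. Around the other 9 genes the surroundings held between 2.67 per kb (DMS3) and 4.26 per kb (SHH1). CLSY3 exceeded 21 of 23 protein-coding genes within 50 kb and CLSY4 exceeded 14 of 17. DRD1 exceeded 13 of 17, and RDM1 14 of 33. How far the level of the surroundings enters the density of CLSY1 was not tested.

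SHH1, the shortest of the 10 genes at 2008 bp, held 9 centres, at the 62.0 percentile of protein-coding genes. Its nucleosomes had the highest median score of the 10 genes, 0.839, at the 81.7 percentile of genes with a listed centre. Of its 9 nucleosomes, 6 were higher-scoring, which placed it at the 83.8 percentile in that set. The longest stretch without a listed interval was 213 bp, shorter than in most genes of similar length (11.7 percentile). With 9 centres, the interval of SHH1 ran from 2.05 to 8.51 per kb.

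IDN2 held 14 centres in 3397 bp, at the 52.4 percentile. Only 1 of them lay before a stretch of 547 bp without a listed interval that began 252 bp from its lower end, and the nucleosome just past this stretch was its best-scoring one, with 0.961, at 18031468 to 18031617 on chromosome 3. Of the higher-scoring nucleosomes IDN2 kept 5 and stood at the 29.1 percentile, the lowest of the 10 genes. Its density was 1.02 times that of the median gene with all nucleosomes and 0.748 times with the higher-scoring ones, and the second value lies inside the counting interval of the first.

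KTF1, the longest of the 10 genes at 6968 bp, held 31 centres, at the 61.1 percentile, and they were unevenly placed. From its lower to its higher end, 3 equal parts held 6, 11 and 14 centres, or 2.58, 4.74 and 6.03 per kb. The intervals of the outer parts, from 0.948 to 5.62 and from 3.30 to 10.1 per kb, overlap. In all protein-coding genes of the same length range the 3 parts held 3.97, 4.17 and 3.83 per kb, but genes of both strands are mixed there, so these means do not show whether single genes have such a slope. The longest stretch without a listed interval in any of the 10 genes lay in KTF1, 821 bp from 672 to 1492 bp. Its top-scoring nucleosome, with 0.917, lay at 1199056 to 1199236 on chromosome 5 and is 180 bp long, the upper limit of interval lengths in the list.

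**Figure D3:**
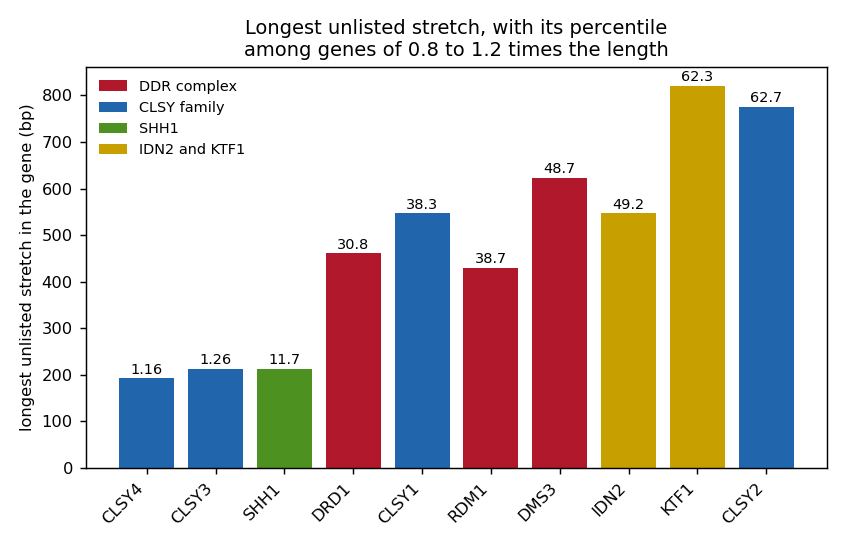
Longest stretch without a listed interval in each gene body, in bp, with its percentile among protein-coding genes of 0.8 to 1.2 times the length printed above the bar. CLSY4 with 192 bp and CLSY3 with 212 bp stand at the 1.16 and 1.26 percentiles, and KTF1 with 821 bp and CLSY2 with 775 bp lie above the middle.

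Neither CLSY3 nor CLSY4 had a long stretch without a listed interval. Their longest ones were 212 bp and 192 bp, at the 1.26 and 1.16 percentiles of genes of similar length. With higher-scoring nucleosomes alone CLSY4 still stood low, with 474 bp at the 3.21 percentile, whereas CLSY3 reached 987 bp at the 39.8 percentile, so that lower-scoring calls fill the gaps in CLSY3. In the other 8 genes the longest stretch ranged from 213 to 821 bp. For CLSY1 it was 547 bp (38.3 percentile), for CLSY2 775 bp (62.7 percentile) and for KTF1 821 bp (62.3 percentile). Over all protein-coding genes in the length range of the 10, the median was 525 bp.

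Spacing in the 10 genes was like that in other genes. Over 202 steps between successive centres the median was 155.75 bp, with quartiles of 104 and 229 bp, against a median of 155 bp with quartiles of 104 and 238 bp in all protein-coding genes. Steps from 150 to 210 bp, the range of a nucleosome with its linker, made up 26.7% of the steps in the 10 genes and 21.7% in all genes. Steps under 120 bp, which come from overlapping calls, made up 37.6% in the 10 genes and 36.1% in all genes. They were 45 of 102 steps in the CLSY genes, and 11 of 43 in IDN2 and KTF1. The steps of a gene share their nucleosomes, and these shares were not tested.

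Scores also resembled those elsewhere. The median score of the 212 nucleosomes was 0.788, equal to 3 digits to that of all nucleosomes in protein-coding genes. Of the 212, 104 were higher-scoring, 49.1%, against 49.4% in all protein-coding genes. By gene, median scores ran from 0.771 in CLSY2 to 0.839 in SHH1. Between the same limits lay CLSY4 with 0.831, RDM1 with 0.830 and DMS3 with 0.823. The quartiles of the median score over protein-coding genes were 0.751 and 0.827.

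Outside the genes, listed nucleosomes lay mostly in neighbouring genes. The 20 sides of 1 kb held 59 centres, 2.95 per kb (interval 2.25 to 3.81), against 2.43 per kb over the sides of all protein-coding genes. Of these 59, 48 lay in 9.77 kb of neighbouring protein-coding genes, 4.91 per kb, and 11 in the other 10.2 kb, 1.08 per kb. Outside every annotated gene no such difference was seen, with 1.09 per kb (interval 0.544 to 1.95) against 1.11 per kb over the sides of all protein-coding genes. The richest side was the higher side of DRD1, with 8 centres, the whole of which belongs to BLH7, a BEL1-like homeodomain gene. The lower side of CLSY4 held 6, all within AT3G24330.

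On 4 of the 20 sides there was no centre within 1 kb, namely the higher sides of DMS3, CLSY1, CLSY3 and CLSY4. Over all protein-coding genes 19.7% of sides were empty, so the count is near the background. None of these 4 sides has a protein-coding gene within 1 kb, and the higher side of CLSY4 holds the miRNA gene MIR8169. Sides without a protein-coding gene within 1 kb numbered 7 around the 10 genes and held 4 centres, 0.571 per side (interval 0.156 to 1.46), with 4 of the 7 empty. Over all genes such sides held 1.31 centres each and 37.8% were empty.

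The distance between the last centre inside the gene and the first outside was 1966.5 bp at the higher end of CLSY4, 1934 bp at that of DMS3, 1725 bp at that of CLSY1 and 1100.5 bp at that of CLSY3. These lie between the 72.2 and 91.1 percentiles of all gene ends. Among ends without a protein-coding neighbour they lie between the 54.3 and 80.6 percentiles. The shortest such distances were 99 bp at the lower end of DRD1 (1.72 percentile) and 178.5 bp at that of CLSY3 (6.09 percentile). The nucleosome at 7097193 to 7097325 on chromosome 2 crosses the lower end of DRD1 and overlaps the next one, at 7097296 to 7097420, which lies inside the gene. Where transcription starts in these genes was not analysed here, so neither end can be called a promoter from these data.

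**Figure D4:**
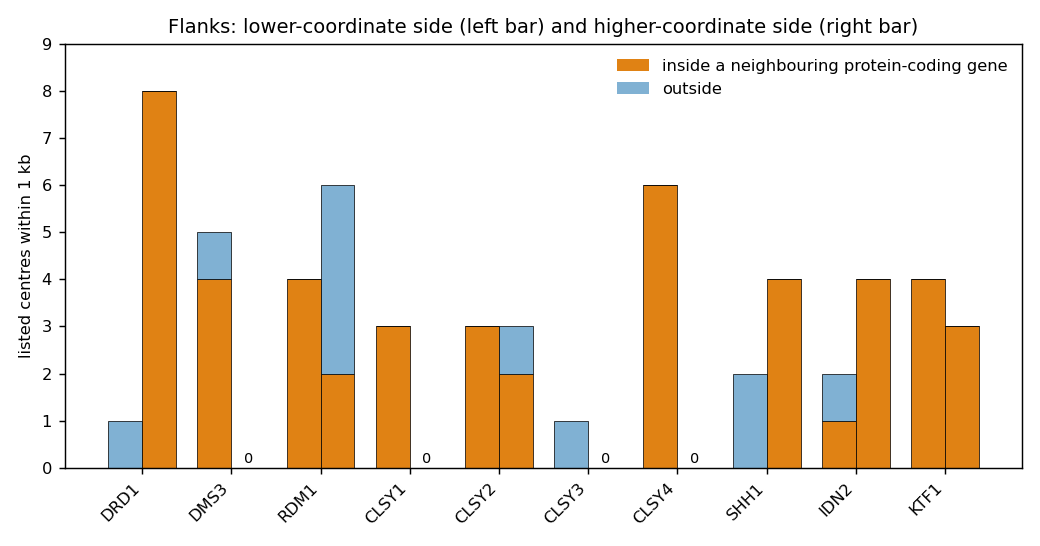
Listed nucleosome centres within 1 kb of each gene end, lower-coordinate side in the left bar and higher-coordinate side in the right bar of each pair, split by whether the centre lies in a neighbouring protein-coding gene. The higher sides of DMS3, CLSY1, CLSY3 and CLSY4 hold 0 centres, and the higher side of DRD1 holds 8, all in BLH7.

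The other genes of the pathway had about the same densities as these partners. In 14 of them, from the polymerase subunits to Argonautes and the methyltransferase gene DRM2, the median was 4.58 per kb, 3 lay above the upper quartile of protein-coding genes and 1 below the lower one. RDR2 (AT4G11130), the RNA-dependent polymerase that pairs with polymerase IV, was highest with 27 centres at 6.45 per kb, close to CLSY4. MORC6 (AT1G19100), an ATPase of the silencing pathway that binds DMS3, was lowest with 17 centres at 2.63 per kb. NRPE1 (AT2G40030), the gene mutated in nrpe1, held 48 centres at 5.18 per kb, between CLSY1 and DRD1. Without a strain for each nucleosome this does not check the label of the mutant.

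Relatives of the partners had a similar median. Over 9 relatives the median was 4.58 per kb, with 2 above the upper quartile and 0 below the lower one. KTF1 had 4.45 centres per kb and 57.1% covered, against 7.63 per kb and 82.8% in SPT5-1 (AT2G34210), the highest of the relatives. SPT5-1 encodes a form of the elongation factor SPT5. The other SPT5 gene among the relatives, SPT5-2 (AT4G08350), stood close to KTF1, at 4.42 per kb with 55.0% covered. IDN2 had 14 centres at 4.12 per kb, against 14 at 3.61 per kb in FDM3 (AT3G12550), the lowest of the relatives. Its relative FDM5 also lay below IDN2, at 3.70 per kb. FDM1, FDM2 and FDM4 lay above IDN2, at 4.58, 4.84 and 4.65 per kb. No gene was matched to these 10 by likeness of pattern, because 1 pooled list gives no pattern over samples.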

How the data were processed

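MNase-digested DNA of 1 nrpe1 and 1 Col-0 library was size-selected on a 2% agarose gel, per the labels. Per the submitters' processing notes, Bowtie and the TAIR10 genome were used. The sources used here name no nucleosome caller, and do not say what the score means or how the libraries were combined. The deposited score of each listed nucleosome is the authors' own, and it served only to rank or filter nucleosomes. There were 0 columns of single libraries, so strains were not compared and no test was run. The sources also do not say whether positions count from 0 or 1.

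Genes, lengths and neighbours were read from RefSeq's gene table (assembly TAIR10.1), and 33 of 33 locus identifiers matched. The names CLSY1, CLSY2, CLSY3 and CLSY4 are CHR38, CHR42, chr31 and CHR40 in that table. As a check of offset, the profile of centres around gene ends was compared between each chromosome and the other 4, and the best lag was 0 bp on each of the 5. An offset shared by the whole list would not show.

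A nucleosome was assigned to a gene by the midpoint of its interval. Percentiles are the percent of protein-coding genes with a lower value, ties split evenly. Python 3.11.15, numpy 2.4.6, pandas 2.3.3 and scipy 1.17.1 were used, and the counting steps were tested on simulated data. All 10 partners are named. Of the other lists the lowest and highest gene and NRPE1 are named, and beside them the relatives of KTF1 and IDN2. The genes and lists were chosen with earlier results of these data known. The comparison by sides with and without neighbours, the 3 parts of each gene and the 50 kb surroundings were chosen after the values had been seen. No genome sequence was used here.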

Additional observations from a re-analysis of the deposited data

How the results depend on the processing

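The alternatives were nucleosomes scoring at or above the median score, assignment by any overlap, gene plus 1 kb on both sides, overlapping intervals thinned to the higher score, genes of similar length as comparison and, for flanks, 500 bp or sequence outside annotated genes. Gene bodies outside other genes, and the wider window against genes of similar length, were added after seeing the data. Relative to the median gene, the summed density was 1.21 times and ranged from 1.19 to 1.33 times, inside its counting interval. The median of the 10 genes was 1.15 times. It was set against the interval of the summed count, rescaled to the median, from 0.998 to 1.31 times. That interval does not measure the spread of a median over 10 genes. The median lay outside it only for gene plus 1 kb on both sides, at 1.34 times. There the genes above the upper quartile numbered 7 in place of 4. They numbered between 3 and 6 under the other alternatives, and 0 genes lay below the lower quartile in each. Among higher-scoring nucleosomes the share covered fell to 33.1%, against 61.1% with all, the longest unlisted stretch reached 1316 bp in place of 821 bp, and the median step was 318 bp. The median step was 234 bp after thinning. In all protein-coding genes it was 285 bp among higher-scoring nucleosomes and 249 bp after thinning, against 155 bp with all. The 10 genes thus stood above all genes in the first set and below them in the second. These differences were not tested.

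Of 60 alternative values for single genes, 60 stayed inside the counting interval of the reported value, and 5 crossed the median gene. These intervals are wide, for SHH1 from 0.508 to 2.11 times, and the alternatives largely recount the same nucleosomes. Staying inside them therefore does not show that the value of a single gene is stable. DMS3 reached 1.11 times among higher-scoring nucleosomes, 1.07 times with 1 kb on both sides and 1.12 times after thinning. IDN2 dropped to 0.748 times among higher-scoring nucleosomes and RDM1 to 0.980 times after thinning. Flank density went from 1.21 to 0.980 times that of all genes when annotated neighbours were left out. No paired analysis was possible because each strain has 1 library and the list does not separate them. The number of nucleosomes per gene, between 9 and 31, limits the precision of each density.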
